A study of Mus musculus with 4 samples.

Results

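Galectin genes and the gene of the TIM-3 receptor were followed across cell classes and sorted fractions of lymph node cells: Lgals1, Lgals3, Lgals8 and Lgals9, the galectin-related gene Grifin, the galectin-binding glycoprotein gene Lgals3bp, and Havcr2, which encodes TIM-3. They are 7 of the 32289 genes counted in both libraries. They were chosen by their measured levels across cell classes and fractions in these same cells, so those levels are given as a description. Single-cell RNA was measured in mesenteric lymph node cells of untreated 15-day-old mice carrying Gm38411-iCre-hCD2 and an R26 tdTomato reporter, in a study of RORγt-positive dendritic cells and regulatory T cells. The gate took tdTomato+ cells with CD11c and MHC-II and without CD3 and B220, and these were split by hCD2 into a positive (hCD2+) and a negative (hCD2-) fraction. The same 12 mice, told apart by hashtag antibodies, gave both fractions, so every cell of either fraction came from an animal with the same alleles, and no mouse without them was sampled. Each fraction was 1 library, so a difference between fractions and a difference between library preparations cannot be told apart.

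Galectins are secreted and cytosolic lectins that bind beta-galactoside sugars on glycoproteins. Outside cells they cross-link glycosylated receptors, and inside cells some of them mark damaged endosomes. TIM-3, an inhibitory receptor of the T cell immunoglobulin and mucin family, is known from exhausted T cells and from conventional dendritic cells, and galectin-9 is among its described ligands. Grifin is known as a galectin-like protein of the eye lens whose mammalian form lacks sugar binding.

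After filtering, 7099 hCD2+ and 4762 hCD2- cells carried exactly 1 hashtag, with medians of 17486 and 23846 UMIs per cell and 7269488 to 17966298 and 5914558 to 16238728 UMIs per mouse. Only 9 barcodes were shared by the libraries. Cells were clustered without the 7 genes and without the partner genes given further on, and clusters were named from marker lists. A cluster is called led by a gene if that gene was among its 10 of highest fold over the other cells. Such a gene was seen in at least 25% of the cluster's cells and need not rank first. The classes used were cDC1-like, cDC2-like, CCR7 migratory DC-like, Prdm16 or Aire DC-like, ILC3 or LTi-like, NK or ILC1-like, T cell-like, pDC-like and monocyte or macrophage-like cells. No class was given to 2961 hCD2+ and 853 hCD2- cells. The largest group of these, cluster 1 with 1461 hCD2+ and 123 hCD2- cells, carried 9 of 10 ILC3 or LTi markers and is not part of that class. T cell-like cells were present, 296 in hCD2+ and 933 in hCD2-, although the gate was CD3-. As a check of the sort, Gm38411 stood at 41.0 ± 5.83 CPM (SD, n = 12 mice) over all hCD2+ cells and at 1.27 ± 0.392 CPM over all hCD2- cells. Levels are given as CPM, the UMIs of a gene scaled to the same total for all sums, summed over the cells of 1 class in 1 mouse where at least 10 cells were present. CPM is not scaled by gene length, so no level is compared between genes. The droplets holding 10 to 100 UMIs gave the level of free RNA in each library, and that level is given beside each gene.

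All 7 genes were placed by their identifiers in the GENCODE vM21 annotation of GRCm38. Havcr2 (ENSMUSG00000020399) lies on chromosome 11 from 46454935 to 46481255 on the plus strand, and Lgals9 (ENSMUSG00000001123) and Lgals3bp (ENSMUSG00000033880) lie on the minus strand of the same chromosome, from 78962974 to 78984946 and from 118392751 to 118402092. Grifin (ENSMUSG00000036586) is a 5-exon gene on chromosome 5 from 140563119 to 140565071, and its nearest coding neighbours, Chst12 and Lfng, are 37395 and 42249 bases away. Lgals1 (ENSMUSG00000068220) lies on chromosome 15 from 78926725 to 78930465, and Lgals3 (ENSMUSG00000050335) on chromosome 14 from 47367751 to 47386160, both on the plus strand. Lgals8 (ENSMUSG00000057554) lies on the minus strand of chromosome 13 from 12439415 to 12464944 and overlaps Heatr1, on the opposite strand, by 875 bases. Whether strand was used in counting is not given in the sources used here, so UMIs in that overlap could belong to either gene.

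The 250 bases before the start of 4 of the genes are shown. Grifin and Havcr2 were taken because they stood far higher in particular dendritic cell clusters than in most others, Havcr2 also in monocyte or macrophage-like cells. Lgals9 and Lgals3bp are 2 of the 3 members, with Lgals8, that were highest in lymphoid and monocyte classes. The sequences are from RefSeq on GRCm38.p6, which held 6 of the 7 genes, and run 5′ to 3′ on the gene's own strand, with matches to a searched motif in capitals. The windows are chr5:140565068-140565317 (minus strand), chr11:46454681-46454930 (plus), chr11:118401960-118402209 (minus) and chr11:78984925-78985174 (minus). Starts are those of RefSeq, which differ from the GENCODE bounds given above. The windows of Grifin, Lgals3bp and Lgals9 thus reach into the gene as placed there.
Grifin: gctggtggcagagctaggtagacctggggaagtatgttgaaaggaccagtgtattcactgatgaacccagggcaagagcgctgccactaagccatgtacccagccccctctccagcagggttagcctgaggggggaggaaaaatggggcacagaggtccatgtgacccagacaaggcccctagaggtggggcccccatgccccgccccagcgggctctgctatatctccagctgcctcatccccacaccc
Havcr2: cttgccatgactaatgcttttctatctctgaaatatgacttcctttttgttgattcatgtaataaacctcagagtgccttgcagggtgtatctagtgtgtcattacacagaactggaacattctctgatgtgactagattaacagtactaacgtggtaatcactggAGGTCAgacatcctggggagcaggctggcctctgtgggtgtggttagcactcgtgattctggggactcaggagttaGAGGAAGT
Lgals3bp: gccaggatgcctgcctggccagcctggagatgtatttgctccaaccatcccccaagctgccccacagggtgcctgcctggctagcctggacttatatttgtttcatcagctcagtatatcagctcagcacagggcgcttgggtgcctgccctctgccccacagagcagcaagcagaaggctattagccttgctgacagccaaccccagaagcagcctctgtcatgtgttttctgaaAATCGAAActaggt
Lgals9: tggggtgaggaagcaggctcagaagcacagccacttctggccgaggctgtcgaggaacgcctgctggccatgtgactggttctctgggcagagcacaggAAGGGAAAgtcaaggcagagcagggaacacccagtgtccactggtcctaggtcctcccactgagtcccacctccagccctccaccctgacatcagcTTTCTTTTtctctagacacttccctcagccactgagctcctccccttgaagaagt
Both strands were searched for 5 motifs chosen with the sequences in view, and a match is a description only. The nuclear receptor half-site AGGTCA, found in 14.0% of 32851 promoter windows of the same length, and the PU.1-type ETS site GAGGAAGT, found in 2.44%, were in the Havcr2 window, the latter ending at the last base before the start. The IRF-type core AANNGAAA, found in 21.3% of windows, matched 1 time in Lgals3bp and 2 times in Lgals9, the later match on the reverse strand. The Lgals3bp match lay 14 to 7 bases before the RefSeq start, inside the gene as placed by GENCODE. The AP-1 site TGAGTCA was present in 4.46% of all windows. The core promoter element TATAAA was present in 12.4%. Neither was in any of the 4 windows shown, and none of the 5 motifs matched in that of Grifin.

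Havcr2 was mostly a gene of conventional dendritic cells in this sort, but not of these alone. In hCD2+ it stood at 119 ± 67.7 CPM in monocyte or macrophage-like cells (SD, n = 3 mice), level with 119 ± 52.3 CPM in cDC2-like cells. Among hCD2- cells it was highest in cDC1-like cells, at 384 ± 85.1 CPM (SD, n = 11 mice; lowest 298, median 360, highest 612), and next in cDC2-like cells, at 265 ± 43.4 CPM (n = 12; lowest 202, median 252, highest 344). These ranges over mice overlapped, whereas those of cDC2-like cells and of the next class, Prdm16 or Aire DC-like cells at 11.4 ± 7.25 CPM, did not. The 44 hCD2- monocyte or macrophage-like cells were too few per mouse for a level in that fraction. The remaining classes stood between 9.15 ± 5.39 CPM in CCR7 migratory DC-like and 0.544 ± 0.865 CPM in NK or ILC1-like cells. Between them, ILC3 or LTi-like cells had 4.76 (3.13 without the highest mouse), pDC-like 4.48 and T cell-like 1.51 CPM, each overlapping its neighbour in that order. The free RNA level was 91.1 CPM in the hCD2- and 19.5 CPM in the hCD2+ library, above the level of all these lower classes.

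In the hCD2+ fraction the 3 mice with enough cDC1-like cells stood at 346, 551 and 403 CPM of Havcr2. All of them were above monocyte or macrophage-like cells, at 195, 98.6 and 64.3 CPM in 3 mice. The hCD2+ cDC2-like cells followed at 119 ± 52.3 CPM (SD, n = 10; lowest 40.2, median 138, highest 183), with no overlap with CCR7 migratory DC-like cells at 3.35 ± 3.33 CPM (lowest 0, median 2.96, highest 11.9, n = 12). Prdm16 or Aire DC-like cells stood at 3.28 ± 1.75, T cell-like at 0.422 and ILC3 or LTi-like at 0.384 CPM. Over the hCD2- library, cDC2-like cells held 52.6% and cDC1-like cells 30.7% of the Havcr2 UMIs.

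The share of cells with a Havcr2 UMI gave the same order of cDC1-like, cDC2-like and lymphoid cells. At 5000 UMIs drawn from each cell, 69.3% of 251 hCD2- cDC1-like cells had one (95% Wilson interval 63.4 to 74.7%) and 69.9% of 83 hCD2+ cDC1-like cells (59.3 to 78.7%). Among cDC2-like cells the share was 57.6% of 861 hCD2- cells (54.3 to 60.9%) and 36.3% of 179 hCD2+ cells (29.6 to 43.6%). Of 100 hCD2+ monocyte or macrophage-like cells, 39 had one. In NK or ILC1-like hCD2- cells, which serve as the background of free RNA, it was 0.265%, and 0 of 262 hCD2+ T cell-like cells had one, which allows a share of up to 1.15%. Without thinning, the shares were 92.6% and 94.3% in cDC1-like and 83.3% and 66.0% in cDC2-like cells, at median depths of 41860 and 40124 and of 28421 and 34160.5 UMIs, against a median of 19278 in NK or ILC1-like cells. Intervals and limits of this kind cover counting error only.

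Lgals9 is the gene of the tandem-repeat galectin described as a TIM-3 ligand. It was highest in NK or ILC1-like, T cell-like and monocyte or macrophage-like cells and near 0 in 2 of the dendritic cell classes. Among hCD2- cells NK or ILC1-like cells had 97.2 ± 24.9 CPM (SD, n = 12; lowest 62.0, median 87.2, highest 145) and T cell-like cells 92.6 ± 12.6 CPM (n = 12; lowest 71.8, median 93.1, highest 114). These overlapped each other, and T cell-like cells did not overlap pDC-like cells, at 49.0 ± 14.1 CPM. Below them stood cDC1-like cells at 33.2, ILC3 or LTi-like at 25.4 and cDC2-like at 22.0 CPM, overlapping in sequence. CCR7 migratory DC-like cells had 1.97 ± 1.77 and Prdm16 or Aire DC-like cells 4.76 ± 7.65 CPM (2.95 without the highest mouse), at a free RNA level of 30.8 CPM in that library and 18.3 CPM in the other.

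In hCD2+ cells, Lgals9 stood at 110, 156 and 42.0 CPM in monocyte or macrophage-like cells of 3 mice and at 93.5 ± 17.9 CPM in T cell-like cells (n = 10; lowest 76.0, median 85.1, highest 126). The T cell-like cells did not overlap ILC3 or LTi-like cells, which had a lowest value of 22.0, a median of 36.6 and a highest of 47.7 CPM (36.2 ± 6.15, n = 12). The dendritic cells came last, with cDC1-like at 28.0 (13.9 without the highest of 3 mice), cDC2-like at 19.9, CCR7 migratory DC-like at 2.03 and Prdm16 or Aire DC-like at 1.35 CPM. After thinning, 37.9% of hCD2- NK or ILC1-like cells had a Lgals9 UMI, with an interval of 33.2 to 42.9%. The share was 0.525% (0.241 to 1.14%) in Prdm16 or Aire DC-like and 0.596% in CCR7 migratory DC-like cells, both hCD2+.

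**Figure D1:**
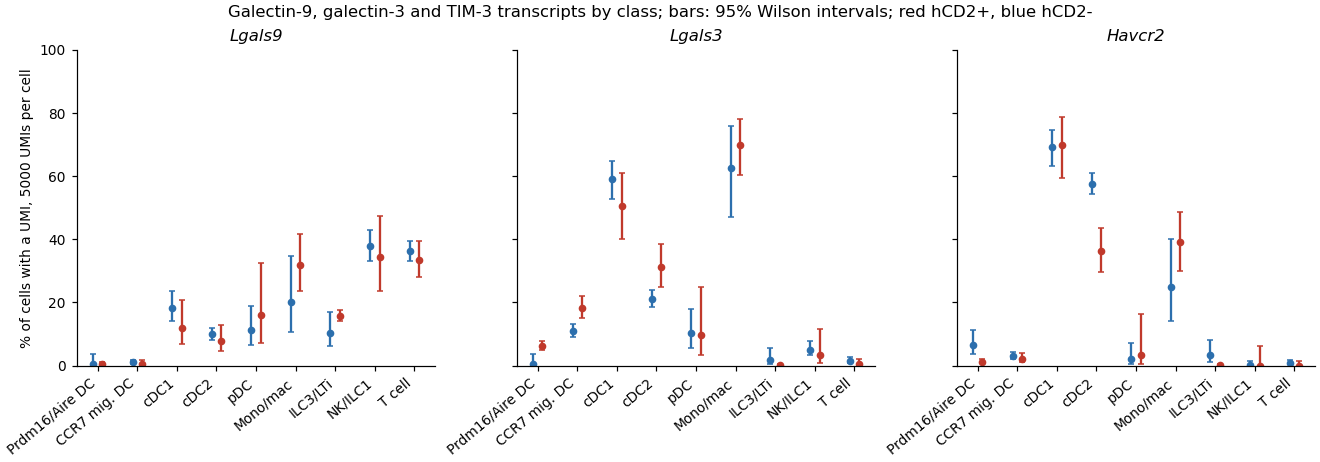
Percent of cells with at least 1 UMI of Lgals9, Lgals3 or Havcr2 (vertical axes) after each cell was thinned to 5000 UMIs, by class and fraction, with 95% Wilson intervals as bars. Havcr2 reached 69.3% in hCD2- cDC1-like cells, where Lgals9 was seen in 18.3%, and Lgals9 reached 37.9% in hCD2- NK or ILC1-like cells, where Havcr2 was seen in 0.265%.

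Next, detection of Havcr2 and of a galectin in the same cell was counted at 5000 UMIs per cell. Among 251 hCD2- cDC1-like cells, 105 (41.8%) had a UMI of both Lgals3 and Havcr2. Lgals3 was seen in 60.3% of the cells with Havcr2 and in 55.8% of those without. Lgals9 was seen in 16.7% of cDC1-like cells with Havcr2 and in 22.1% of those without. In hCD2- cDC2-like cells, Lgals9 was seen in 11.3% and 7.95%, and Lgals3 in 20.6% and 21.9%. In these hCD2- cells detection of either galectin differed by a few percentage points between cells with and without Havcr2. In hCD2+ cells the gaps for Lgals3 were larger and ran in opposite directions: 44.8% against 64.0% in 83 cDC1-like cells, and 41.5% against 25.4% in 179 cDC2-like cells. Lgals9 was seen there in 13.8% against 8.0% and in 7.69% against 7.89%. Few cells lie behind the hCD2+ shares (58 cDC1-like and 65 cDC2-like cells with Havcr2), and no test was made over cells.

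**Figure D2:**
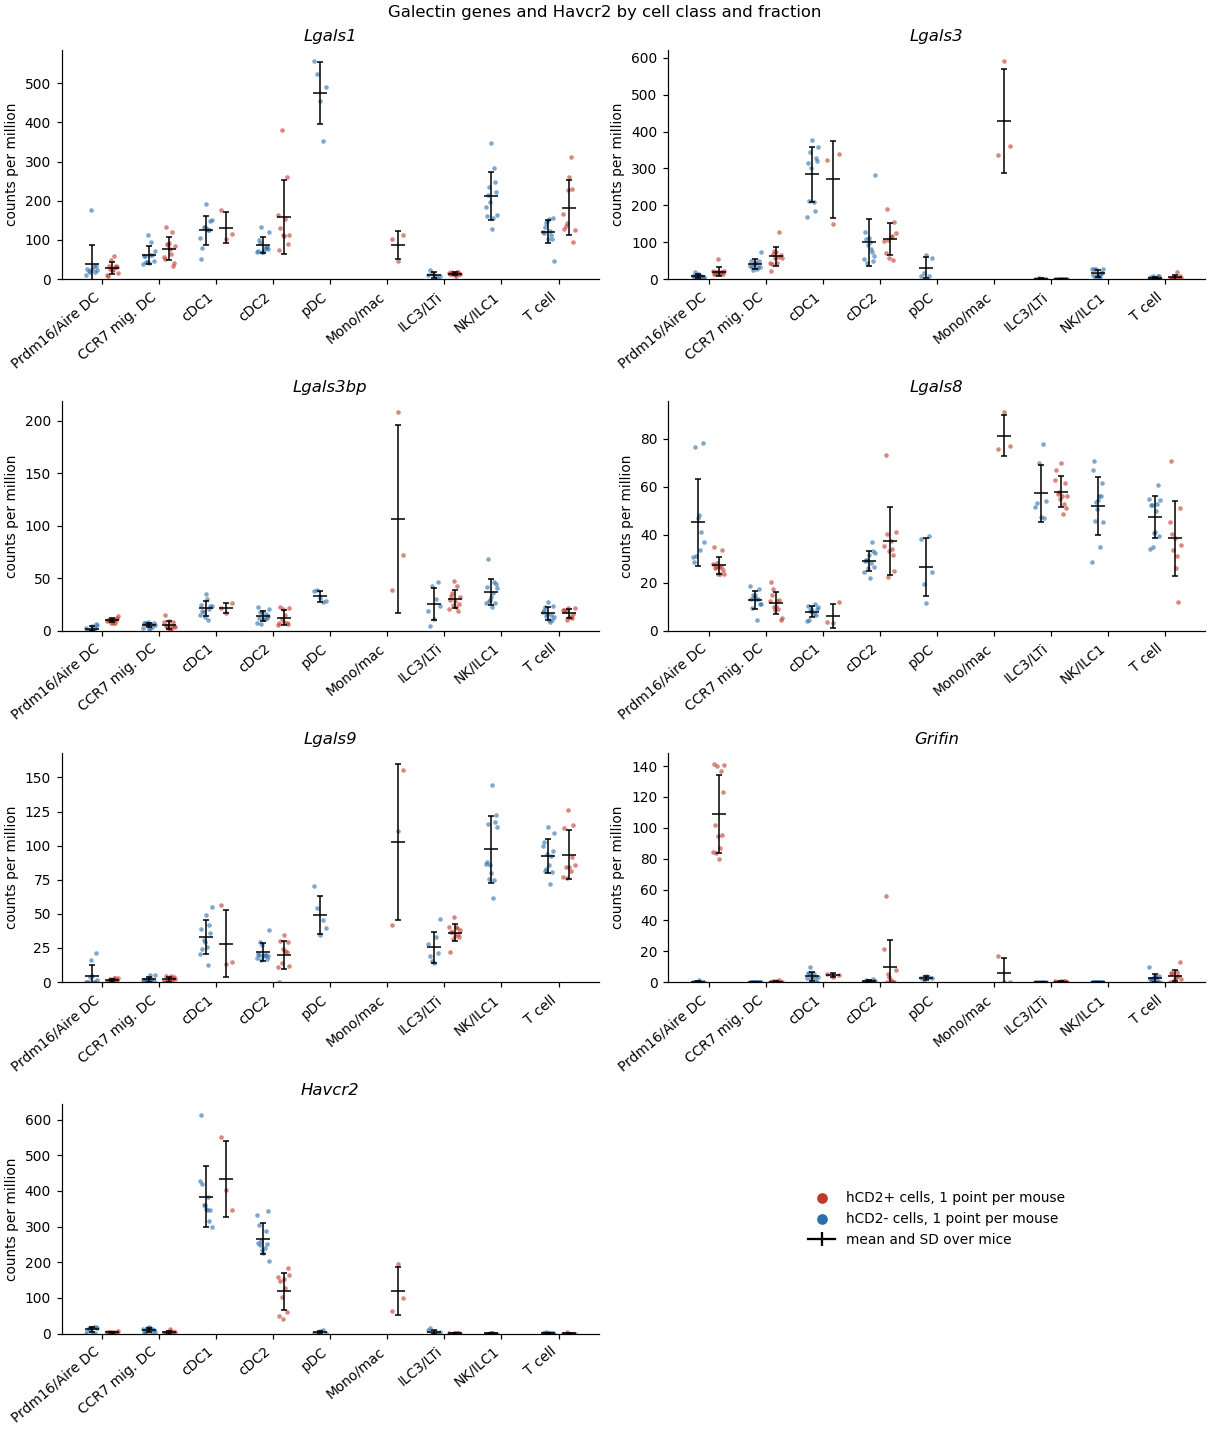
CPM of each of the 7 genes (vertical axes, 1 panel per gene) by cell class, with 1 point per mouse, hCD2+ in red and hCD2- in blue, and the mean and SD over mice as bars. In the hCD2+ fraction, Prdm16 or Aire DC-like cells had 79.7 to 141 CPM of Grifin, and Havcr2 was highest in cDC1-like cells of both fractions.

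Lgals1 encodes galectin-1, a small dimeric galectin known for effects on activated T cells. Its highest class was pDC-like, measured in 5 hCD2- mice at 352, 490, 557, 524 and 454 CPM, above every mouse of the next class, NK or ILC1-like, at 212 ± 61.2 CPM (SD, n = 12; lowest 129, median 206, highest 347). In hCD2- cells cDC1-like (125), T cell-like (122), cDC2-like (86.9), CCR7 migratory DC-like (61.3), Prdm16 or Aire DC-like (38.8) and ILC3 or LTi-like cells (10.5 CPM) followed, each overlapping the next. The 38.8 ± 48.9 CPM of hCD2- Prdm16 or Aire DC-like sums rested on 1 mouse at 177 CPM: the median was 24.4, and the mean without that mouse 23.5 ± 7.19 CPM (n = 9), below the hCD2+ mean. In hCD2+ cells the order was T cell-like at 183 ± 70.7, cDC2-like at 159 ± 94.0, cDC1-like at 131 ± 39.7, monocyte or macrophage-like at 87.2 ± 36.4, CCR7 migratory DC-like at 77.5 ± 29.8, Prdm16 or Aire DC-like at 28.6 ± 14.3 and ILC3 or LTi-like at 14.2 ± 3.39 CPM, again with overlap between all neighbours. Free RNA held 75.6 CPM of Lgals1 in the hCD2+ and 89.8 CPM in the hCD2- library. After thinning, 82.7% of hCD2- pDC-like cells had a Lgals1 UMI (74.0 to 88.9%), against 44.6% of NK or ILC1-like cells.

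Among hCD2+ cells, Lgals1 was highest in a cluster left without a class, cluster 7. That cluster was led by Foxp3, the transcription factor of regulatory T cells, with Ctla4, Ccr4 and the dendritic cell lectin gene Cd209a. It carried 7 of 8 T cell and 6 of 10 cDC2 markers at a median of 48909 UMIs per cell. Lgals1 there stood at 651, 767, 343, 996, 770 and 1065 CPM in 6 hCD2+ mice and at 160 ± 51.4 CPM in 8 hCD2- mice (lowest 106, median 147, highest 243). All hCD2+ values lay above all hCD2- values, also in 5 of 5 mice measured in both fractions. After thinning, the share with a Lgals1 UMI was 68.4% (59.5 to 76.1%) in hCD2+ and 42.4% (35.5 to 49.6%) in hCD2- cells of the cluster. The 119 hCD2+ cells were 1.68% of that fraction and held 5738 of its 13930 Lgals1 UMIs, or 41.2%, whereas the hCD2- cells were 3.86% of their fraction and held 10.6%. The summed T cell markers ranged from 1560 to 2000 CPM in hCD2+ and from 892 to 1655 CPM in hCD2- sums of this cluster, and the cDC2 markers from 174 to 711 and from 489 to 940 CPM. The part of that mix in the Lgals1 difference was not tested.

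Lgals3, the gene of the chimeric galectin-3 of macrophages, was highest in myeloid cells. Monocyte or macrophage-like hCD2+ cells had 591, 360 and 336 CPM in 3 mice, and cDC1-like cells 338, 324 and 151 CPM in 3 hCD2+ mice and 284 ± 74.5 CPM in hCD2- mice (SD, n = 11; lowest 170, median 315, highest 376). cDC2-like cells followed at 109 ± 43.4 and 99.5 ± 63.5 CPM, then CCR7 migratory DC-like cells at 61.4 ± 26.3 and 40.7 ± 12.9 CPM, in hCD2+ and hCD2- in that order. Prdm16 or Aire DC-like cells had 20.4 ± 11.4 and 8.98 ± 5.17 CPM, T cell-like cells 4.64 (3.07 without the highest mouse) and 4.11 CPM, and ILC3 or LTi-like cells 0.648 and 0.554 CPM. In hCD2- cells, pDC-like cells at 31.3 and NK or ILC1-like cells at 15.7 CPM stood between CCR7 migratory DC-like and Prdm16 or Aire DC-like cells. Every class overlapped its neighbour in the order of both fractions, and free RNA held 37.6 CPM in the hCD2+ and 67.1 CPM in the hCD2- library. The lowest level was thus in ILC3 or LTi-like cells, where 0.189% of thinned hCD2+ cells had a Lgals3 UMI, against 70.0% (60.4 to 78.1%) of hCD2+ monocyte or macrophage-like cells.

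Lgals3bp encodes a secreted glycoprotein that binds galectin-3, and it did not follow the classes of Lgals3. It stood at 208, 72.4 and 39.2 CPM in hCD2+ monocyte or macrophage-like cells of 3 mice. ILC3 or LTi-like cells, the lowest class for Lgals3, had 29.8 ± 8.76 CPM in hCD2+ and 25.4 ± 15.6 CPM in hCD2- mice. In hCD2- cells, NK or ILC1-like cells were at 36.9 ± 12.6 and pDC-like cells at 32.7 ± 5.38 CPM. The other classes lay between 21.3 CPM in hCD2+ cDC1-like and 2.01 CPM in hCD2- of the Prdm16 or Aire DC-like class, all neighbours overlapped, and free RNA held 13.3 CPM in hCD2+ and 10.7 CPM in hCD2-. Cluster 1, outside the class, had 18 ± 2.92 CPM of Lgals3bp and 25.3 ± 5.07 CPM of Lgals9 in hCD2+ mice. Within the ILC3 or LTi-like class, cluster 13, led by the interferon-induced genes Iigp1 and Gbp6 and by Ly6a, had 86.1, 94.6 and 92.1 CPM in 3 hCD2+ mice. The same cluster had 60.0 CPM of Lgals9 and 85.2 ± 27.8 CPM of Lgals8.

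Lgals8 encodes a tandem-repeat galectin known as a sensor of damaged endosomes. In hCD2+ cells it was highest in monocyte or macrophage-like cells, at 91.0, 77.0 and 75.5 CPM, above every one of the 12 mice with ILC3 or LTi-like cells, whose lowest, median and highest were 48.4, 56.5 and 69.9 CPM (57.9 ± 6.31, SD). T cell-like cells at 38.4, cDC2-like at 37.3 and Prdm16 or Aire DC-like at 27.1 ± 3.60 CPM overlapped in sequence, and the last of these stood above every mouse of CCR7 migratory DC-like cells, at 11.4 CPM, with cDC1-like at 6.17 CPM (3.25 without the highest of 3 mice). In hCD2- cells ILC3 or LTi-like (57.2), NK or ILC1-like (52.0), T cell-like (47.3), Prdm16 or Aire DC-like (45.1), cDC2-like (29.1), pDC-like (26.5), CCR7 migratory DC-like (12.9) and cDC1-like cells (7.94 CPM) each overlapped the next. The class highest for Havcr2 was thus the lowest for Lgals8, and free RNA held 40.6 CPM in hCD2+ and 26 CPM in hCD2-.

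Grifin was found mostly in the Prdm16 or Aire DC-like class of the hCD2+ fraction, whose cells held 94.8% of the Grifin UMIs of that fraction in 17.2% of its cells. The level there was 109 ± 25.2 CPM (SD, n = 12 mice; lowest 79.7, median 98.4, highest 141), against 1 UMI, in 1 of 10 mice, in the hCD2- cells of the class. No mouse of the next hCD2+ class, cDC2-like at 9.49 ± 17.5 CPM (lowest 0, median 2.53, highest 55.8; 4.34 without the highest mouse), reached the lowest of these 12 mice. Pooled over cells, 3887 UMIs in 36011431 and 1 UMI in 4277453 gave a ratio of 461.7 with a 95% counting interval of 82.8 to 18240.8. That interval covers counting error only, not the spread between cells or mice, and Grifin was chosen with this difference in view. The ratio also sets different clusters side by side: 170 of the hCD2- cells were in cluster 6, whose hCD2+ cells held 0 Grifin UMIs. The free RNA level was 15.9 CPM in hCD2+ and 0.525 CPM in hCD2-.

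Outside this class, Grifin was highest in cluster 19, a cluster of low UMI counts left without a class, whose 76 hCD2+ cells had a median of 2220 UMIs and held 83 Grifin UMIs, 2.02% of those of the fraction. That is 268 CPM pooled over cells (95% counting interval 213 to 332), against 0 UMIs in its 106 hCD2- cells. The levels in the other classes were low. T cell-like cells had 4.16 ± 3.78 CPM in hCD2+ and 2.68 ± 2.62 CPM in hCD2- mice, the latter from 49 UMIs and above the free RNA level of its library, and cDC1-like cells 4.35 ± 1.21 and 3.73 ± 2.93 CPM. hCD2- pDC-like cells had 2.49, hCD2- cDC2-like cells 0.655 and hCD2+ monocyte or macrophage-like cells 0, 0 and 16.8 CPM in 3 mice. CCR7 migratory DC-like cells held 3 UMIs in hCD2+ and 0 in hCD2-, at 1.55% of the free RNA level in hCD2+, ILC3 or LTi-like cells 0.253 CPM and 0 UMIs, and hCD2- NK or ILC1-like cells 0 UMIs. After thinning, 16.2% of 1143 hCD2+ Prdm16 or Aire DC-like cells had a Grifin UMI (14.2 to 18.4%; 31.5% without thinning), against 0 of 503 hCD2+ CCR7 migratory DC-like cells, which allows up to 0.596%.

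Within the Prdm16 or Aire DC-like class there were 3 clusters that differed in these genes. Cluster 3 was led by Aire, the regulator of self-antigen display, and Aqp4, cluster 4 by Pigr, the receptor that carries immunoglobulin across epithelia, with Cldn7 and Ush1c, and cluster 6 by Ncam1 and Nrg1, the last with only 3 of 10 class markers. Grifin stood at 151 ± 60.6 CPM in cluster 3 (lowest 103, median 140, highest 323) and at 122 ± 34.8 CPM in cluster 4 (lowest 67.6, median 113, highest 184). Cluster 6 had 0 Grifin UMIs in 11 hCD2+ mice and 1 UMI in its hCD2- cells. Lgals3 stood at 42.0 ± 35.8 CPM in cluster 3, 10.8 ± 5.27 in cluster 4 and 21.6 CPM in cluster 6 of hCD2+ mice, and Lgals3bp at 7.18, 12.9 and 2.94 CPM. Lgals8 ran the other way from Grifin, with 20.7, 26.7 and 38.4 CPM, and Havcr2 stood at 1.18 (0.351 without the highest mouse), 1.44 and 12.5 CPM. Clusters 3, 4 and 6 held 356, 625 and 242 hCD2+ cells but 14, 1 and 170 hCD2- cells, so the fractions of this class are largely different clusters. The 14 hCD2- cells of cluster 3 held 0 Grifin UMIs, where the hCD2+ level would give 43.6. Pooled over cells, the ratio was 14.5-fold by a floor of 3 counts, with a 95% counting limit of 11.8-fold. Both figures rest on these 14 cells, too few for a level per mouse, and cover no spread between cells or mice. No smallest difference between the fractions is read from them.

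**Figure D3:**
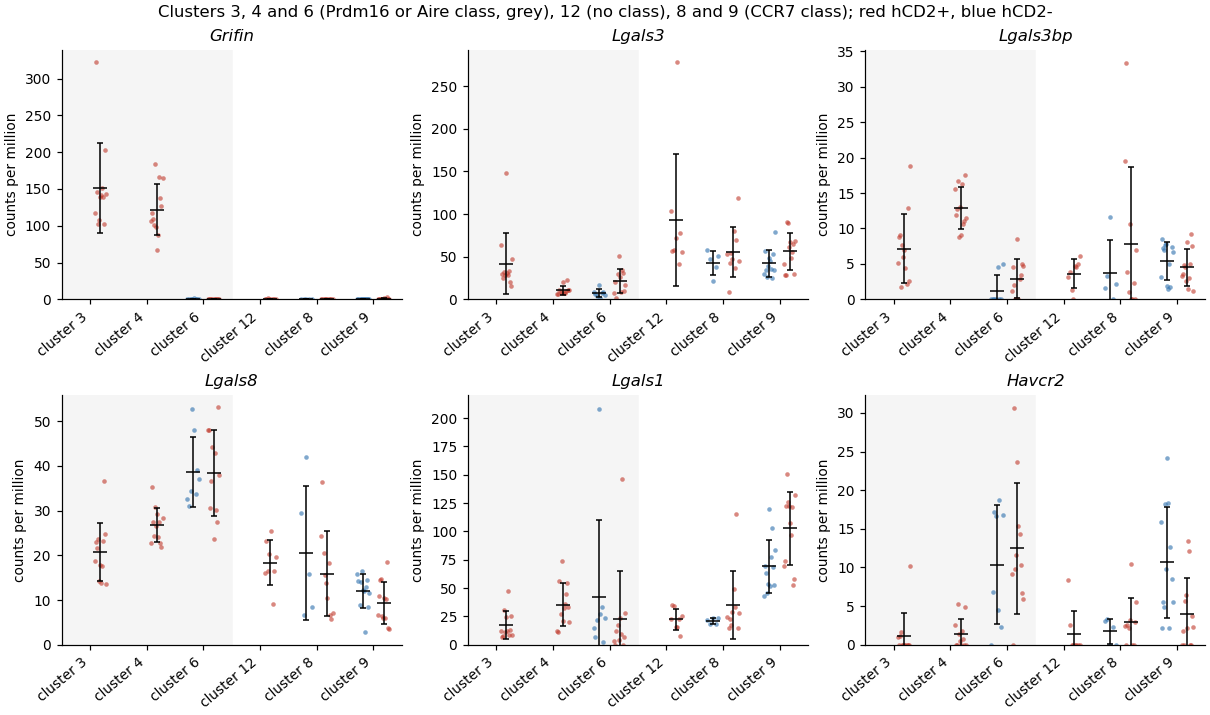
CPM of Grifin, Lgals3, Lgals3bp, Lgals8, Lgals1 and Havcr2 (vertical axes, 1 panel per gene) in dendritic cell clusters, with 1 point per mouse, hCD2+ in red and hCD2- in blue, mean and SD as bars, and clusters 3, 4 and 6 of the Prdm16 or Aire DC-like class shaded grey. Grifin was at 67.6 CPM or more in every hCD2+ mouse of clusters 3 and 4 and at 0 in every hCD2+ mouse of cluster 6.

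Cluster 12, with 222 hCD2+ and 9 hCD2- cells, was left without a class because it carried 8 of 10 CCR7 and 4 of 10 Prdm16 or Aire markers. Its leading genes, headed by Gm33819 and Macc1, included Havcr1 and Timd2, the genes of the TIM family members TIM-1 and TIM-2, and the integrin gene Itgb8. Havcr1 stood there at 98.8 ± 21.8 CPM (SD, n = 8 hCD2+ mice; lowest 67.8, median 102, highest 130) and Timd2 at 38.9 ± 10.4 CPM. Neither was among the genes used for clustering, but both were picked out because they are among its leading genes, so their levels are a description. Of the 7 genes, Lgals3 was at 92.9 ± 77.3 CPM (lowest 40.9, median 65.3, highest 278), Lgals9 at 0.924 CPM and Grifin at 1 UMI. Outside it, Havcr1 was seen at 112 CPM in hCD2- pDC-like cells of 5 mice.

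The fractions were then compared within each class and over all cells by edgeR's quasi-likelihood test with Benjamini-Hochberg adjustment over all genes tested, hCD2+ against hCD2-. The genes were chosen with these differences known, so the calls are given beside the share of all genes called and nothing is read from them. Over all cells, where the number of cells of a class and the RNA per cell cannot be told apart, 67.8% of genes passed, and so did 6 of the 7 members. Grifin was higher by 4.55 ± 0.21 (log2, SE) and Lgals8 by 0.33 ± 0.05, and Havcr2 stood at -2.22 ± 0.18, Lgals3 at -0.77 ± 0.16, Lgals9 at -0.73 ± 0.10 and Lgals1 at -0.42 ± 0.17. Havcr2 was at 24.0 ± 9.27 CPM in hCD2+ and 111 ± 26.1 CPM in hCD2-, lower in 12 of 12 mice with no overlap, and Lgals9 was lower in 12 of 12 mice. Lgals1 was lower in 11 of 12 mice, with a log2 difference of -1.0 without cluster 7, and its adjusted p of 0.0366 was 0.0506 with no filter on low counts. Lgals3bp, at 16.9 and 15.6 CPM, did not pass.

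In the cDC2-like class 25.2% of genes passed, and 2 of the 6 members tested. Havcr2 was lower in hCD2+ by a log2 value of -1.13 ± 0.18, and Lgals1, at 159 ± 94.0 against 86.9 ± 20.7 CPM, was higher by 0.86 ± 0.21 and in 9 of 10 mice. The class was made of cluster 17, with 117 hCD2+ and 806 hCD2- cells, and cluster 18, led by the cell-cycle genes Iqgap3 and Nusap1, with 71 and 112 cells. In cluster 17 alone, an alternative added after seeing the data, Havcr2 was at 189 ± 94.1 against 285 ± 51.1 CPM, lower in 6 of 8 mice, with a log2 difference of -0.59 ± 0.20 and an adjusted p of 0.0850 by edgeR. Lgals1 there differed by 0.27 (edgeR adjusted p = 0.448), and Lgals8 passed at 0.58 (edgeR adjusted p = 0.0449), against 0.28 in the class. The hCD2+ sums of this class also held 13.4 to 971 CPM of the Prdm16 or Aire markers, all 10 of them at 1 CPM or more, against 7.79 to 28.7 CPM in hCD2-. Their cDC2 markers summed to 343 to 930 CPM against 781 to 1075 CPM. The part of these markers in the Havcr2 and Lgals1 differences was not tested.

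**Figure D4:**
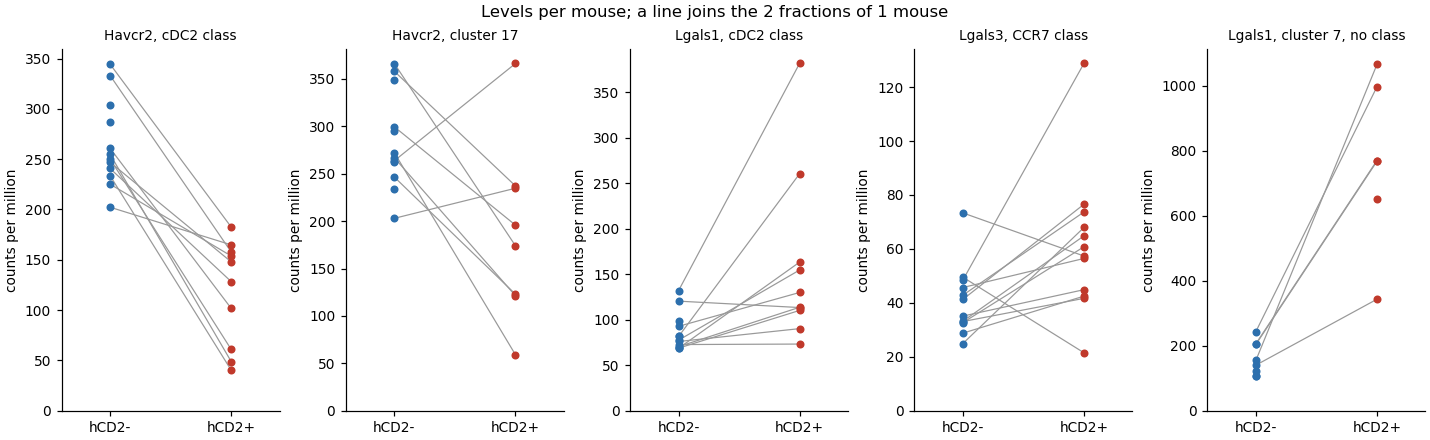
CPM in the hCD2- and hCD2+ cells of the same mouse, joined by a line, for Havcr2 in the cDC2-like class and in cluster 17 alone, Lgals1 in the cDC2-like class, Lgals3 in CCR7 migratory DC-like cells and Lgals1 in cluster 7 (1 panel each, CPM on the vertical axes). Havcr2 was lower in hCD2+ in 10 of 10 mice of the class and in 6 of 8 mice of cluster 17, and Lgals1 was higher in hCD2+ in 5 of 5 mice of cluster 7.

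In CCR7 migratory DC-like cells, which display antigen after moving to the node, 18.8% of genes passed and 1 of 3 members tested. Lgals3, at 61.4 ± 26.3 CPM in hCD2+ (lowest 21.5, median 59.1, highest 129) and 40.7 ± 12.9 CPM in hCD2- (lowest 24.9, median 38.2, highest 73.3), was higher by 0.58 ± 0.19 on the log2 scale and in 10 of 12 mice, with overlapping groups. In cluster 9 alone, led by the chemokine genes Ccl17 and Ccl22, it differed by 0.49 (edgeR adjusted p = 0.119), whereas Lgals1 passed there at 0.61 (edgeR adjusted p = 0.0246) and not in the class (0.34 ± 0.19, adjusted p = 0.216). Clusters 8 and 9 held 197 and 327 hCD2+ cells and 143 and 807 hCD2- cells. The hCD2+ sums of this class also held more of the cDC1 markers (265 to 698, median 510 CPM, against 214 to 459, median 302, with 9 and 8 of 10 markers at 1 CPM or more) and of the Prdm16 or Aire markers (101 to 473, median 264 CPM, against 38.6 to 278, median 118, with 7 and 6 of 10). The part of these markers in the Lgals3 difference was not tested. Lgals8 differed by -0.25 ± 0.19 and did not pass.

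In the Prdm16 or Aire DC-like class 50.1% of genes passed, and 4 of the 5 members tested. Of these, Grifin, Lgals3bp and Lgals3 passed the filter on low counts through their hCD2+ levels alone. In the hCD2- sums of 10 mice they held only 1, 10 and 31 UMIs. Lgals3bp stood at 9.94 ± 1.93 CPM (lowest 7.35, median 9.93, highest 14.0) against 2.01 ± 2.40 CPM (lowest 0, median 1.08, highest 6.01). It was higher by 2.02 ± 0.35 on the log2 scale, and the ranges did not overlap. The hCD2- values lay at the counting floor, however, with 10 UMIs in all and 0 in 5 of 10 mice. Lgals3 was higher by 1.41 ± 0.39 and in 9 of 10 mice. Lgals8 was lower, at -0.64 ± 0.14 and in 9 of 10 mice, and Lgals1 at -0.39 ± 0.41 did not pass. In cluster 6 alone, the one of the 3 clusters present in both libraries in number, Lgals8 was the only member tested and differed by -0.02 ± 0.17 (edgeR adjusted p = 0.978), at 38.4 against 38.5 CPM. Own markers of the class summed to 3831 to 4974 CPM in hCD2+ and 228 to 1087 CPM in hCD2-. B cell markers lay the other way, at 87.7 to 155 CPM in hCD2+ (5 of 8 at 1 CPM or more) and 183 to 790 CPM in hCD2- (4 of 8, with 2 at 0), without overlap. The part of these markers in the differences was not tested.

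In ILC3 or LTi-like cells, innate lymphocytes marked by RORγt, 6.86% of genes passed by edgeR, 657 of 9575, or 250 with the mouse as a block. Of 4 members tested 0 passed, 1 had an unadjusted p under 0.05, and DESeq2 called 0. That gene was Lgals9, at 0.46 ± 0.22 (edgeR adjusted p = 0.246). In T cell-like cells 1.03% of genes passed by edgeR, 0 of 4 members passed, 1 had an unadjusted p under 0.05, and DESeq2 called 0; this gene was Lgals1, at 0.48 ± 0.16 (edgeR adjusted p = 0.212). For the difference of fraction changes between ILC3 or LTi-like and CCR7 migratory DC-like cells, 6.08% of genes passed by edgeR, 281 higher and 360 lower, against 203 higher and 783 lower by DESeq2. Of 6 members tested 0 passed, 0 had an unadjusted p under 0.05 by edgeR, and DESeq2 called 0.

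**Figure D5:**
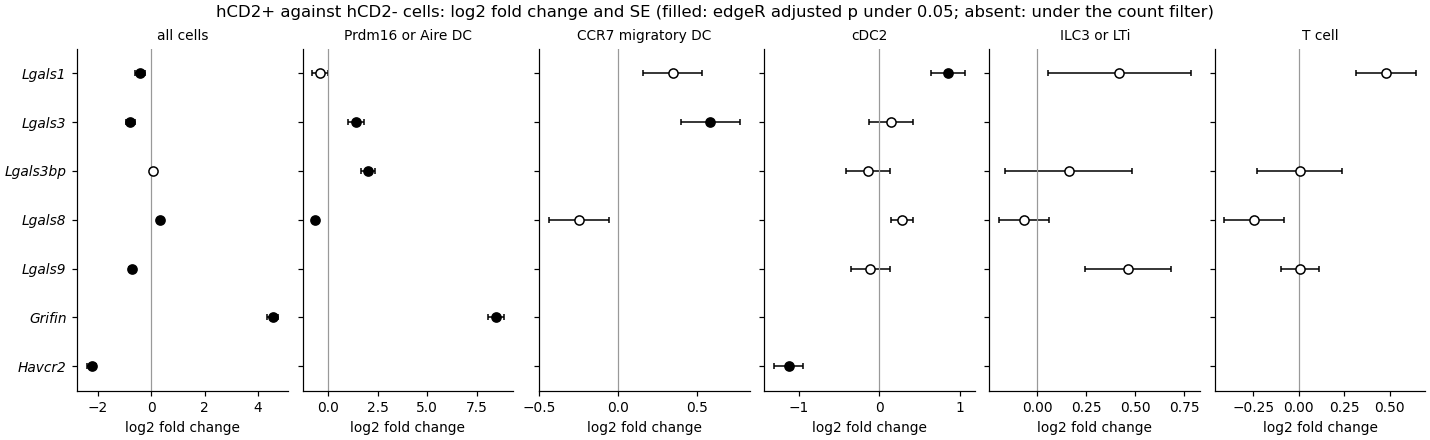
Log2 difference of hCD2+ from hCD2- with its SE for each member (horizontal axes, which differ between panels) in each comparison, with filled points where the edgeR adjusted p was under 0.05 and no point where a gene was under the filter on low counts. Havcr2 lay below 0 over all cells (-2.22) and in cDC2-like cells (-1.13), and Lgals3 above 0 in CCR7 migratory DC-like (0.58) and Prdm16 or Aire DC-like cells (1.41) but below 0 over all cells (-0.77).

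Partner genes of these lectins were compared in the same fits, from lists chosen with earlier results of these data known. Of the glycoproteins bound by galectins, 8 rose and 1 fell in hCD2+ among 12 tested in the Prdm16 or Aire DC-like class, where 50.1% of all genes were called, with a median log2 difference of 1.29 against -0.04 for all genes. They included Cd7, a galectin-1 receptor of T cells (3.39 ± 0.21), Lamp1, a lysosomal glycoprotein (1.41), and the death receptor gene Tnfrsf25 (2.94). In cluster 6 alone Cd7 was still called, at 1.50 (edgeR adjusted p = 0.00301), and Lamp1 was not, at 0.32 (edgeR adjusted p = 0.141). In cDC2-like cells, where 25.2% of all genes were called, 4 rose and 2 fell of 11, among them Spn, encoding CD43 (1.81), Itgam (-1.08) and Ptprc, encoding CD45 (-0.46), and only Spn of these kept its call in cluster 17 alone, at 1.15 (edgeR adjusted p = 0.0268). In CCR7 migratory DC-like cells, where 18.8% of all genes were called, 2 rose (Tnfrsf9 by 0.30 and Itgb1 by 0.22) and Ptprc fell (-0.42) of 8 tested, and of these Tnfrsf9 kept its call in cluster 9 alone (0.31, edgeR adjusted p = 0.0444). In ILC3 or LTi-like cells, where 6.86% of all genes were called, Spn rose by 0.53 and the costimulatory receptor gene Cd40 changed by -1.42, of 11 tested. Cd40 was highest in CCR7 migratory DC-like cells, at 629 CPM in hCD2+, and the 10 markers of that class, all at 1 CPM or more in hCD2-, summed to 85.0 to 1692 CPM (median 658) in the hCD2- ILC3 or LTi-like sums and to 107 to 218 CPM (median 155) in hCD2+. Their part in the Cd40 difference was not tested.

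Of the 8 enzymes that branch or cap the sugars galectins bind, 3 rose and 2 fell in hCD2+ in the Prdm16 or Aire DC-like class, a share near the 50.1% of all genes called there. St6gal1, whose alpha-2,6 sialic acid caps block binding of galectin-1, stood at 48.4 CPM in hCD2+ and 215 CPM in hCD2- of the Prdm16 or Aire DC-like class, a log2 change of -2.09 ± 0.14. Mgat5, the branching enzyme that builds galectin-3 ligands, rose by 0.73 and St3gal1 by 0.95 in that class. In cluster 6 alone none of these 3 passed, with St6gal1 at -0.40 (edgeR adjusted p = 0.0984). In CCR7 migratory DC-like cells, against 18.8% of all genes, 0 rose and 3 fell of 8, with Mgat4a at -0.60, St6gal1 at -0.49 and St3gal1 at -0.48, and in cluster 9 alone St6gal1 kept its call at -0.58 (edgeR adjusted p = 0.00405) and the other two did not. Neither ILC3 or LTi-like nor T cell-like cells had a called gene in this list, of 8 and 6 tested. Of all genes only 6.86% and 1.03% were called there, so nothing is read from this. Across classes, St6gal1 was lowest in hCD2- NK or ILC1-like cells, at 9.56 CPM, and Gcnt1 highest there, at 102 CPM.

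Among genes of TIM-3 ligands and signalling, 3 of 4 tested fell in hCD2+ in the Prdm16 or Aire DC-like class, where 50.1% of all genes were called: Fyn, a kinase that binds the TIM-3 tail, at -2.03 ± 0.18, Hmgb1 at -0.79 and Bag6 at -0.37, and none of these 3 was called in cluster 6 alone, where Fyn stood at -0.30 (edgeR adjusted p = 0.519). In cDC2-like cells Hmgb1, a described TIM-3 ligand, rose by 0.57 and was not called in cluster 17 alone (0.12, edgeR adjusted p = 0.508). Timd4, a phosphatidylserine receptor of the TIM family, rose in cDC2-like cells by 1.57 ± 0.49 and in cluster 17 alone by 2.40 (edgeR adjusted p = 0.0178), but was higher in only 6 of 10 and 4 of 8 mice. Its hCD2+ values in cluster 17 ran from 0 through a median of 14.1 to 186 CPM, against 2.74, 5.84 and 28.6 CPM in hCD2-, so the hCD2+ mean (55.2 CPM) lay far above the hCD2+ median. Lgalsl, a galectin-related gene, stood at 13.4 ± 2.6 against 2.04 CPM in Prdm16 or Aire DC-like cells and rose by 2.43 ± 0.35. The fractions of this class are largely different clusters, and no Lgalsl value for cluster 6 alone is given here.

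Genes whose levels ran most like those of a member were taken by Pearson r of log2(CPM + 1) over 15 class and fraction means, among 10664 genes, as a description in which points share libraries. Grifin ran with Ush1c (0.870), Cpne4 (0.859) and Pigr (0.853), of which Ush1c and Pigr lead cluster 4. Havcr2 ran with Mapk13 and Slamf8 (both 0.951), and Lgals3 with Pomp (0.953), Naip6 (0.949) and Arpc4 (0.940). Lgals9 ran with Rasa3 (0.954), Zfp36l2 (0.941) and Cd53 (0.938), Lgals8 with Ulk1 (0.932) and Arid5b (0.924), Lgals3bp with Tmem189 (0.930), Gvin1 (0.899) and Cgrrf1 (0.886), and Lgals1 with Cyb5b (0.945), Slc7a5 (0.874) and Smg5 (0.872). Between members, Havcr2 ran with Lgals3 (0.820) and not with Lgals9 (0.00610), Lgals3bp ran with Lgals9 (0.777), and Lgals3 and Lgals8 ran in opposite directions (-0.524).

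Whether a mouse high for a gene in one library was also high in the other was tested, since the choice of genes did not use it. Of 21 relations of a member in a class, 15 had a positive Pearson r, from -0.703 to 0.560 with a median of 0.0828, and 0 passed by permutation test, the smallest adjusted p being 0.735 for r and 0.906 for Spearman's rho. The 1 relation with a raw p under 0.05 was Lgals3bp in CCR7 migratory DC-like cells (rho = 0.601, permutation p = 0.0431, r = 0.510, permutation p = 0.0908), and its r was 0.0961 without the 2 mice farthest from the median. Havcr2 in cDC2-like cells had r = 0.237 and rho = 0.115. Differences between mice in these genes were therefore not seen to repeat between libraries at this number of mice.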

How the data were processed

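Counts of UMIs per gene and droplet were deposited by the authors as unfiltered matrices, made with Cell Ranger 8.0.1 on mm10 per the submitters' processing notes. The deposited hashtag tables give a probability, a fraction from 0 to 1, of each hashtag per droplet, and the authors' assignments were used to assign mice. Of the called cells, 806 hCD2+ and 465 hCD2- were hashtag multiplets and were left out as doublets, as were blank and unassigned cells, so doublets within 1 mouse stay in. A cell was kept where 500 genes or more were detected and mitochondrial UMIs made up no more than 10% (libraries of 191493368 and 165869588 UMIs). scanpy 1.11.5 clustered them on 2000 variable genes and 30 components at Leiden resolution 1.0, and clusters were named from at least 3 detected markers.

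For each mouse, fraction and class the counts were added up and tested with edgeR 4.0.16 (TMM, filterByExpr, quasi-likelihood test, Benjamini-Hochberg, threshold 0.05). Alternatives were DESeq2 1.42.0, no filter, the mouse as a replicate block, 5000 UMIs per cell, at least 20 cells, Leiden resolution 0.5, and members and partners among the clustering genes. On simulated data of the CCR7 comparison (8235 genes tested), 97.1% to 100% of the changed genes that passed the filter on low counts were recovered. These were 31 to 49 genes per simulated fold, changed genes under the filter are not counted, and 8 unchanged genes were called. The simulation gave all genes the same spread and held no difference between mice. The fractions pair by mouse, since the same hashtagged animals gave both. Own-mouse correlations of deviations were 0.156 to 0.621 over 12 mice, and only 9 of the 12 correlated best with their own sums in the other library. The members, lists, motifs and tests were chosen with earlier results of these data known. The named partner genes are, per list and comparison, up to 3 called genes of smallest adjusted p, and per list those of widest range over classes; of the 5 like-running genes per member 2 or 3 are printed, and some are not reported here. Lgals6 is not analysed here.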

Additional observations from a re-analysis of the deposited data

Results flagged for a closer look

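In 55 groups of 4 to 10 mice, single mice far from the rest were sought, and chance alone marks about 1 group in 20 of normally spread values. Some groups had few UMIs and mice at 0, such as Havcr2 in cluster 12 of hCD2+ (0 in 6 of 8 mice). The rate of chance marks in such groups is not known. Grifin was 12.8 CPM in 1 hCD2+ T cell-like sum, where the next of 10 mice had 6.25, and 55.8 CPM in 1 hCD2+ cDC2-like sum, where the next had 21.1. Havcr2 in cluster 12 was 8.33 CPM in 1 of 8 mice (next 2.57). Lgals1 was 177 CPM in 1 of 10 mice in the Prdm16 or Aire DC-like class of hCD2- (next 33.6). Lgals3 was 18.8 CPM in 1 hCD2+ T cell-like sum (next 9.58) and 278 CPM in 1 mouse of cluster 12 (next 103). Lgals3bp was 33.1 CPM in 1 hCD2+ mouse of cluster 17 (next 17.2) and 33.3 CPM in 1 hCD2- mouse of cluster 7 (next 18.6). Lgals8 was 73.3 CPM in 1 hCD2+ cDC2-like sum (next 40.9). Lgals9 was lowest, at 25.2 CPM, in 1 of 6 hCD2+ mice of cluster 7 (next 41.3).

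Havcr2 was higher in hCD2+ in 3 of 3 mice in cDC1-like cells but lower in 12 of 12 mice in CCR7 migratory DC-like and in 10 of 10 mice in cDC2-like cells. In CCR7 migratory DC-like cells it stood at 3.35 CPM in hCD2+ and 9.15 CPM in hCD2-. Both lie under the free RNA levels of 19.5 and 91.1 CPM, which differ in the same direction, and the part of free RNA in that difference was not tested. The difference between these classes was not tested.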

How the results depend on the processing

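Of 205 alternative values for the 35 member results tested, 194 kept direction and side of the threshold, 5 lost and 5 gained a call, and 1 reversed. That was Lgals9 in T cell-like cells, at -0.36 (edgeR adjusted p = 0.0228) with members and partners among the clustering genes. The T cell-like class of that setting also held a cluster of 71 hCD2+ and 77 hCD2- cells with Foxp3 and Ctla4 among its leading genes. In the main setting the cluster led by Foxp3, cluster 7, had no class. The numbers of genes called moved with the processing, and the cause was not tested. After thinning to 5000 UMIs per cell, which leaves fewer UMIs, they were 611 (of 1532) in CCR7 migratory DC-like, 598 (of 2201) in cDC2-like, 159 (of 657) in ILC3 or LTi-like, 1962 (of 5009) in Prdm16 or Aire DC-like and 37 (of 75) in T cell-like cells, and 154 (of 641) for the interaction. With the mouse as a replicate block, 250 genes were called in ILC3 or LTi-like cells, and no member's call changed in any comparison. DESeq2 called 120 in T cell-like cells and 986 for the interaction, and no filter gave 135 in T cell-like cells. At Leiden resolution 0.5, 1317 were called in cDC2-like and 421 in ILC3 or LTi-like cells. With members and partners among the clustering genes, 246 were called in ILC3 or LTi-like and 3424 in T cell-like cells. Of the alternatives added after seeing the data, cluster 12 within the CCR7 class gave 2867 and 1257 for the interaction, cluster 9 alone 653, cluster 17 alone 395 and cluster 6 alone 240. At least 20 cells per sum could not be fitted in cDC2-like, ILC3 or LTi-like and Prdm16 or Aire DC-like cells, which were not run.

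Levels are limited by few mice with 10 or more cells in cDC1-like, monocyte or macrophage-like and pDC-like cells, by free RNA near the low levels, and by 1 library per fraction. Levels moved by over 1 SD in 4 of 105 cases at resolution 0.5 and in 14 of 98 after thinning.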
